A study of Mus musculus with 15 samples.

Results

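The 10 growth-related noncoding RNA genes Malat1, Neat1, Pvt1, Lncpint, Mir29a, Mir29b-1, Mir17hg, Dnm3os, Gas5 and Snhg1 were followed in the H3K27ac landscape of a mouse rhabdomyosarcoma. They are 10 of the 49595 RefSeq genes placed on chromosomes 1 to 19, X and Y. A locus was taken as the annotated gene with 50 kb on either side, and a peak belonged to it when at least 1 bp overlapped. Peaks were divided into promoter peaks, within 2 kb of a start site, gene body peaks and flank peaks. The 10 loci formed 7 separate regions, because Malat1 and Neat1 are neighbors on chromosome 19, and Lncpint, Mir29a and Mir29b-1 are neighbors on chromosome 6. Together they held 340 of the 122375 peaks of the list, or 0.278%. The genes were chosen by values of this same list, among them the crowding of peaks at Lncpint and the miR-29 genes, so the counts and enrichments of their peaks are a description and were not tested.

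H3K27ac is acetylation of lysine 27 of histone H3, a mark of active promoters and enhancers. Long noncoding RNA genes are transcribed by RNA polymerase II like protein-coding genes. Some of their RNAs act in the nucleus, and others serve mainly as hosts from which microRNAs or small nucleolar RNAs (snoRNAs) are cut. Malat1 RNA gathers in nuclear speckles and Neat1 RNA builds paraspeckles. Pvt1 lies beside the oncogene Myc, Lncpint is a target of p53, and Gas5 was named for its accumulation in growth-arrested cells. The miR-29 family represses many collagen and matrix genes, while the miR-17 to miR-92 cluster made from Mir17hg is known to promote growth.

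The study compared tumors of 2 mouse models of fusion-positive rhabdomyosarcoma (FP-RMS), a soft tissue cancer driven by the PAX3-FOXO1 fusion (P3F). Both models carried the alleles Cdkn2a(Flox/Flox), Pax(3P3F/P3F), as the labels write the P3F allele at Pax3, and R26-tdTom, joined to Myf6-Cre in the model named MCP and to Tek-Cre in the model named TCP. Cre from Myf6, a gene of myogenic cells, or from Tek, a gene of endothelial cells, switched on P3F and the tdTomato marker and removed the tumor suppressor Cdkn2a in the cells where it acted. The labels list 6 MCP and 3 TCP libraries with an H3K27ac antibody and 3 libraries of each model with IgG, and the peak list described here came from 1 of them, MCP H3K27ac replicate 5. The other libraries were not analyzed here, so there are no replicates, no comparison of MCP with TCP tumors and no test between samples. The labels give no age of the animals, and they name flow cytometry with a live/dead marker without saying whether tdTomato-positive cells were collected.

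The list is shallow, and each value rests on few DNA fragments. The median over all summits was 13 fragments, 84.2% of peaks had fewer than 20, and intervals below are exact Poisson 95% intervals on recovered fragments that cover counting error only. Fold enrichment is given by the caller at the summit. It is the ratio of scaled H3K27ac fragments to local IgG background after 1 is added to each, so it is smaller than a plain ratio. Its median over the list was 5.22. Of the 10 myogenic marker genes, 2 had a promoter peak, Pax3 with 18.1-fold and Myf6 with 5.97-fold enrichment, and both genes carry engineered alleles in these mice. Promoter peaks were found at 0 of 8 endothelial, 2 of 6 macrophage and leukocyte, and 1 of 4 fibroblast marker genes, beside 42% of all genes with a curated start site. Myod1, Myog and Des, which define the muscle lineage, had no promoter peak in this list. Counted with 50 kb on either side, the myogenic genes had a median of 12.96 peaks per 100 kb, although Myog and Pax7 had none. The medians were 6.05 for endothelial, 3.66 for macrophage and leukocyte, and 0.701 for fibroblast genes, beside 3.21 over all genes. How far other cells of the tumor contributed at the loci was not tested.

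The mature microRNAs made within or beside Lncpint, Mir17hg and Dnm3os are shown first, from RefSeq, with the seed (bases 2 to 8) in capitals, since the seed largely sets which messages a microRNA represses. The miR-29 genes lie 30.5 kb beyond the annotated end of Lncpint on the same strand and their 3p products share the seed AGCACCA.
miR-29a-3p: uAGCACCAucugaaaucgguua
miR-29b-3p: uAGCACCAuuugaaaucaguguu
The same seed is found in miR-29c-3p, which is made from a second miR-29 locus on chromosome 1.
miR-29c-3p: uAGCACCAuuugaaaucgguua
In the Mir17hg cluster, miR-17-5p and miR-20a-5p share the seed AAAGUGC, and miR-19a-3p and miR-19b-3p share GUGCAAA.
miR-17-5p: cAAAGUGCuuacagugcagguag
miR-20a-5p: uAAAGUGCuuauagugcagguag
miR-19a-3p: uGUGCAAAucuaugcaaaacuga
miR-19b-3p: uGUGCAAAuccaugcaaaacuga
miR-92a-3p: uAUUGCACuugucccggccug
Dnm3os carries miR-199a and miR-214 within its annotated span, whose 3p seeds differ.
miR-199a-3p: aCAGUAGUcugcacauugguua
miR-214-3p: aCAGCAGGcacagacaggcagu

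Each of the 10 loci held at least 1 peak, as did 66.2% of all RefSeq genes with the same 50 kb flanks. The number ran from 97 at Lncpint, 85 at Pvt1, 79 at Neat1, 73 at Malat1 and 69 at each miR-29 gene, through 33 at Dnm3os, 21 at Gas5 and 20 at Snhg1, to 1 at Mir17hg. The loci together had 29.7 peaks per 100 kb, against 4.49 over the chromosomes and a median of 3.21 over all genes (quartiles 0 and 10.3). Except Mir17hg, the loci were thus above the upper quartile of all genes, and Mir17hg was below the median. By peaks per 100 kb the order was Mir29b-1 (69.0), Mir29a (68.9), Malat1 (68.2), Neat1 (65.4), Lncpint (43.1), Dnm3os (30.6), Pvt1 (26.4), Gas5 (20.2), Snhg1 (19.4) and Mir17hg (0.977). By Poisson 95% intervals on the number of peaks, the first 4 overlapped widely (from 51.8 at Neat1 to 87.3 at Mir29b-1), and each gene in the order overlapped the next except Snhg1 (from 11.9) and Mir17hg (up to 5.44). These intervals count peaks as independent, although neighboring peaks crowd together, and the windows of Mir29a and Mir29b-1 are nearly the same window. Among all 49595 genes Mir29b-1, Mir29a, Malat1 and Neat1 ranked 35, 36, 42 and 50 by this density. The genes next to Mir29a and Mir29b-1 in that order were Gm30193, with 69.3 peaks per 100 kb, and LOC115489839, with 68.9. Those next to Malat1 were Gm36315 (68.2) and 4933440J02Rik (67.9).

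**Figure D1:**
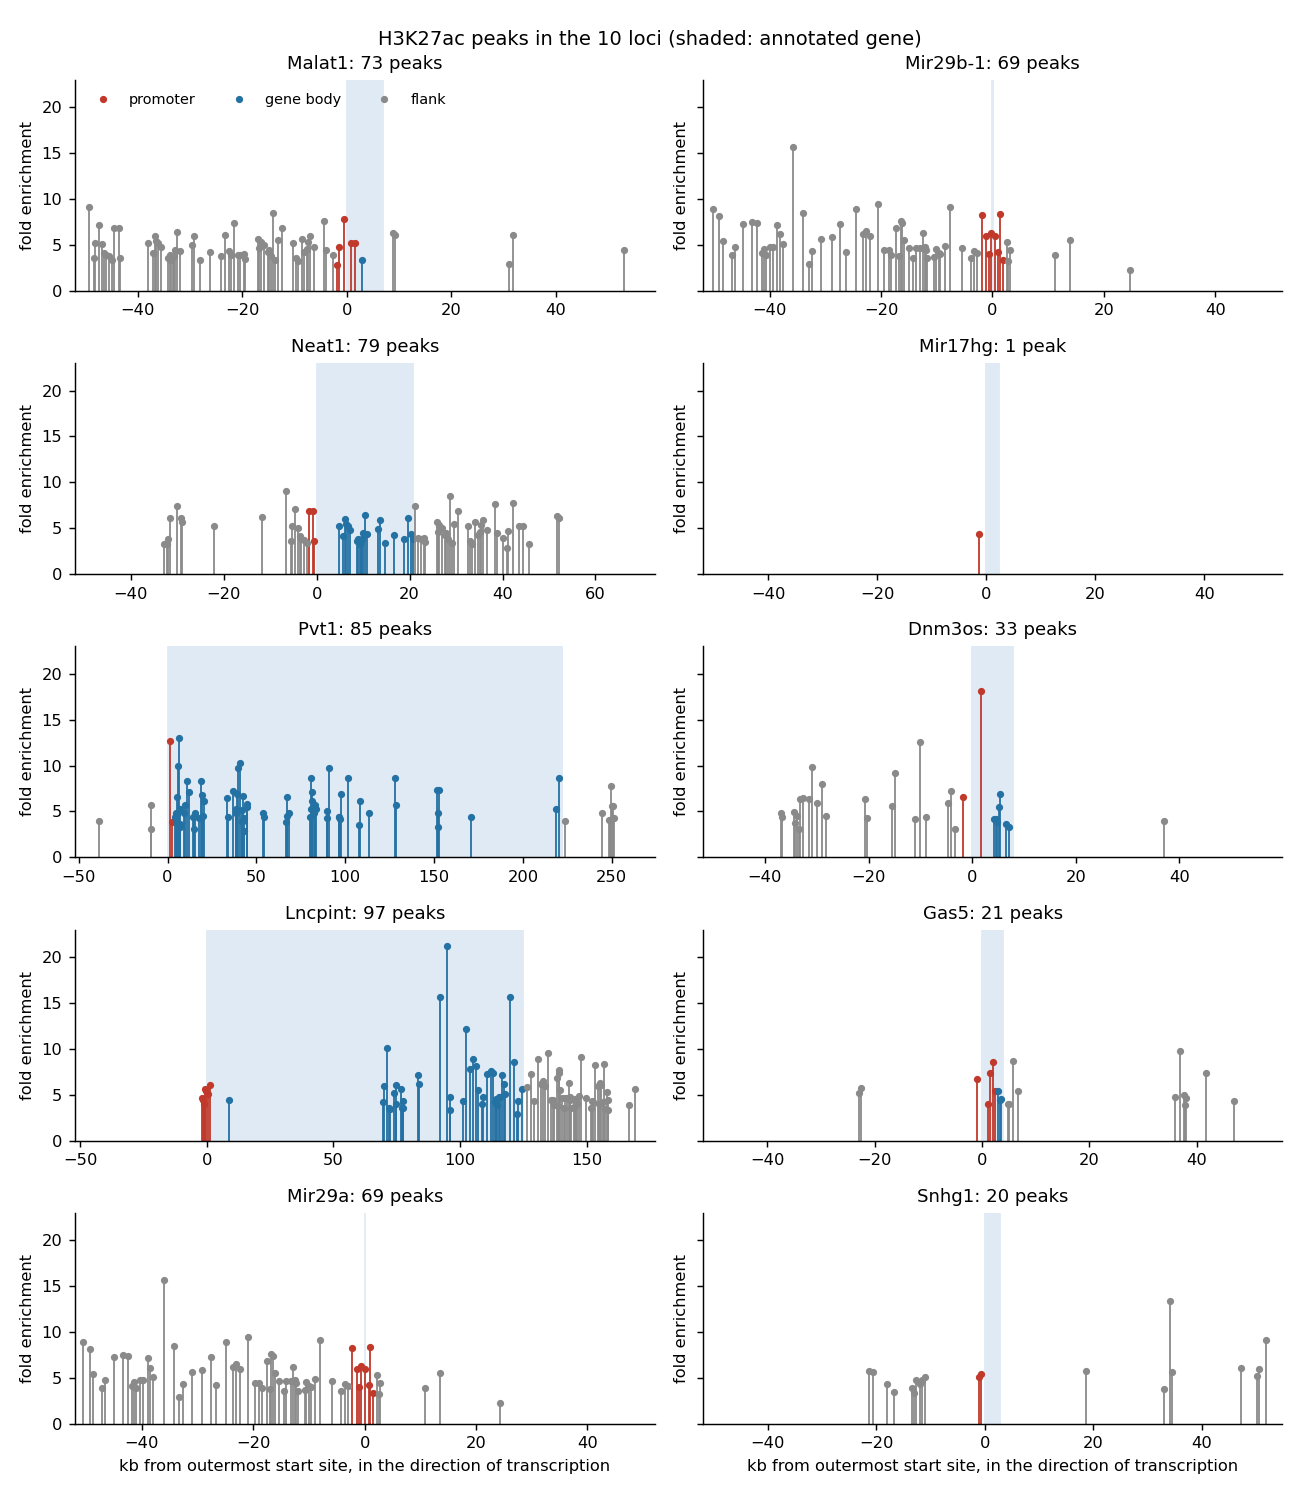
H3K27ac peaks of the 10 loci in MCP H3K27ac replicate 5. The horizontal axis is the distance in kb of the peak's center from the outermost start site, along transcription, each stem is 1 peak and its height is the fold enrichment, red marks promoter peaks, blue gene body peaks and gray flank peaks, and the shaded area is the annotated gene. Pvt1 carried 72 of its 85 peaks in the gene body, Malat1 67 of its 73 in the flanks, and Mir17hg had 1 peak.

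The surround of the loci was sparser on average. In the 2.5 Mb beyond either end of the window, density fell to 8.86 peaks per 100 kb around Malat1, 7.12 around Mir29a, 6.48 around Lncpint and 4.10 around Pvt1. The ratio of locus to surround was 9.68 for Mir29a and Mir29b-1, 7.70 for Malat1, 7.48 for Neat1, 6.66 for Lncpint and 6.43 for Pvt1. It was lower at Dnm3os (3.57), Snhg1 (2.35) and Gas5 (2.23), whose surrounds held 8.28 to 9.08 peaks per 100 kb. Mir17hg stood in a poor neighborhood with 0.860 peaks per 100 kb, and its ratio was 1.14. The median IgG background was 1.34 fragments at the locus peaks and 1.09 over all peaks. By locus it was 1.72 at the miR-29 genes and 1.404 at Neat1, but also 1.404 at Gas5, and 1.09 at Pvt1 and 1.05 at Mir17hg. The lowest background, 1.05, was shared by 47.0% of all peaks and 22.9% of the locus peaks. It was the value of 45.9% of the peaks at Pvt1 and of the peak at Mir17hg. Where the background has this shared value, it need not be a local reading of IgG. A higher local background in the control lowers the fold that the caller reports, and the part it had in these values was not tested.

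**Figure D2:**
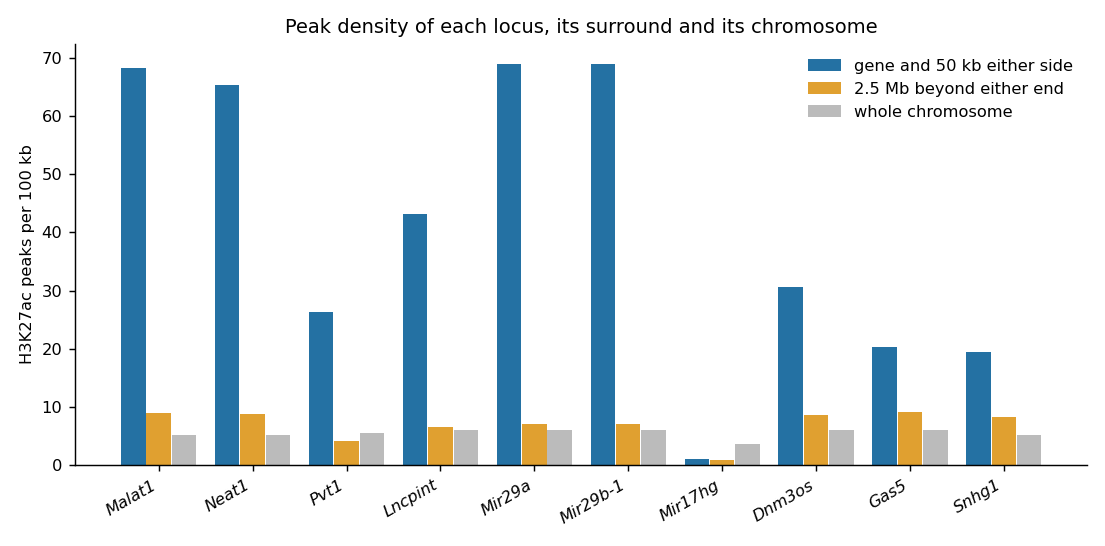
Peak density of each locus beside its surround and its chromosome. Bars give H3K27ac peaks per 100 kb in the gene with 50 kb on either side (blue), in the 2.5 Mb beyond either end (orange) and on the whole chromosome (gray), without error bars since there is 1 library. The blue bars reach 69.0 at Mir29b-1 and 68.2 at Malat1, and only at Mir17hg does the locus (0.977) lie below its chromosome.

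Over the 340 peaks together, crowding did not come with a higher fold. The median fold enrichment of the 340 peaks was 4.81, against 5.22 for the other peaks of the list, and their median width was 166.5 bp against 163 bp. Fewer than 20 fragments lay over 81.5% of their summits, against 84.2% in the whole list, and the median was 13 fragments in both. Medians of the members lay between 4.36 at Mir17hg, which had only 1 peak, and 5.20 at Gas5, and their differences were not tested. A fold of at least 10 was reached by 11 of the 340 peaks (3.24%, against 4.32% of all peaks), 5 of them in the Lncpint locus, 3 at Pvt1, 2 at Dnm3os and 1 at Snhg1. A width of at least 1 kb was reached by 19 peaks (5.59%, against 4.74%), of which Lncpint had 12, Dnm3os and Pvt1 3 each and Gas5 1. In the Lncpint locus 5.15% of peaks reached this fold and 12.4% this width, and in the Mir29a window 1.45% and 13.0%. Malat1 and Neat1 had no peak of either kind in spite of their density.

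All 10 genes had at least 1 promoter peak. In the whole list 42% of the 26180 genes with a curated start site had such a peak, 30.2% of the lncRNA genes and 23.7% of the microRNA genes. For microRNA genes RefSeq gives the start of the hairpin and not that of the longer primary transcript, so their "promoter" windows surround the hairpins. The strongest promoter peak had a fold enrichment of 18.1 at Dnm3os, 12.7 at Pvt1, 8.52 at Gas5, 8.38 at both miR-29 genes, 7.77 at Malat1, 6.82 at Neat1, 6.04 at Lncpint, 5.39 at Snhg1 and 4.36 at Mir17hg. Their median was 8.08, against 7.13 over the 11006 genes with a promoter peak (quartiles 5.65 and 9.39) and 6.98 over the lncRNA genes among them. Both miR-29 genes enter with the same peak, and with it counted once the median of the members was 7.77. Of the members 6 lay above the median of all genes with a promoter peak, both miR-29 genes by that shared peak. Dnm3os was at rank 76 and Pvt1 at rank 720, and the others lay in the broad middle or below. Gas5, both miR-29 genes, Malat1 and Neat1 had 20 to 32 fragments at these summits, and their intervals overlapped.

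**Figure D3:**
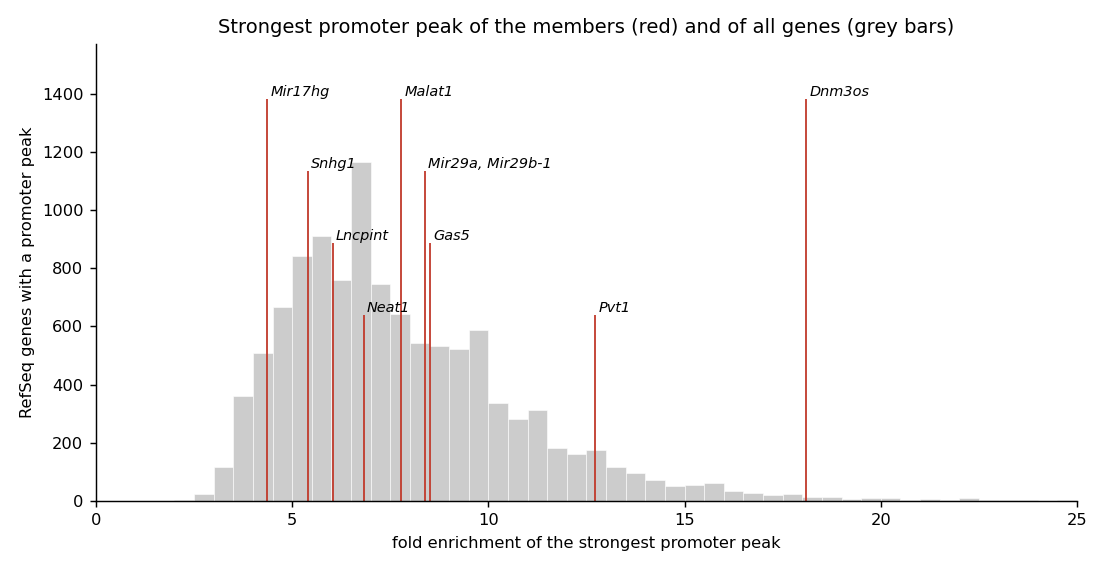
Strongest promoter peak of each member (red lines) beside all RefSeq genes with a promoter peak (gray bars, 0.5 units of fold enrichment each). The vertical axis counts genes and applies to the bars only, the heights of the red lines carry no value, and 7 genes above 25-fold are not drawn. Dnm3os at 18.1 and Pvt1 at 12.7 lie in the right tail, and Mir17hg at 4.36 lies at the left.

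The start sites themselves were mostly not covered. Of the 13 curated start sites of the members, 3 lay inside a peak (23.1%), those of Mir29a and Dnm3os and the inner start of Pvt1, against 8.17% of the 13376 start sites with a peak within 2 kb. At the other 10 start sites the nearest peak edge was 9 bp (Mir29b-1) to 1249 bp (Mir17hg) away. The file lacks a peak number in the interval that holds both Neat1 starts, so a peak there may be missing.

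Malat1 and Neat1 are nuclear RNAs of unlike length whose genes are transcribed in the same direction, with 22.0 kb between them. Their windows shared 70 of 82 peaks. Malat1 (chr19:5795690-5802672, minus strand) had 5 promoter peaks, 1 gene body peak and 67 flank peaks. The strongest promoter peak, at chr19:5803078-5803244, lay 0.552 kb upstream of the start with a fold of 7.77 and 20 fragments (12.2 to 30.9). The gene body peak was among the weakest of the locus, with 3.31-fold enrichment and 7 fragments (2.81 to 14.4), a number that was 1 of 2 its values allowed. The exon of Malat1 held 3 summits, 2 of them within 2 kb of the start, and 62 of its 67 flank peaks lay upstream, toward Neat1. Neat1 (chr19:5824708-5845480, minus strand) had 22 gene body peaks, all with the summit in its long exon. That is 117 per 100 kb of gene body, against 20.1 in Malat1, 32.9 in Pvt1, 34.98 in Lncpint, 118 in Dnm3os and 218.5 in Gas5, whose gene body held 3 peaks. These Neat1 peaks were weak, with folds of 3.30 to 6.46 and a median of 11 fragments. The Neat1 promoter peaks lay upstream of the start, the strongest at chr19:5846300-5846388 with a fold of 6.82 and 22 fragments (13.8 to 33.3). A second one, 515 bp wide, reached nearly the same fold. A peak number is absent from the file between the peaks at chr19:5840665-5840752 and chr19:5846115-5846196. That interval holds both Neat1 start sites, so a peak there may be missing from the list. Between the genes 31 summits lay, with a median fold of 4.61. The strongest peak near both genes, at 9.10-fold with 20 fragments, lay 6.46 kb upstream of Neat1 within the span of Frmd8, the nearest protein-coding neighbor by start site, whose own promoter had 4 peaks.

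The 201 bases around the strongest promoter summit of each are shown on the plus strand of GRCm38, with matches to the searched motifs other than the general E-box in capitals. The Malat1 window holds the letters GGAATG, which TEAD factors bind, and TATAAA on the opposite strand.
Malat1, chr19:5803124-5803324: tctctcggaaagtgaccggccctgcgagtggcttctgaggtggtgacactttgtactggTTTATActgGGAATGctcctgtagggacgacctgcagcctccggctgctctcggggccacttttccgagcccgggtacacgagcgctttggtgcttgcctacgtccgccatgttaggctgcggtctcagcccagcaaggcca
The Neat1 window holds none of these motifs.
Neat1, chr19:5846226-5846426: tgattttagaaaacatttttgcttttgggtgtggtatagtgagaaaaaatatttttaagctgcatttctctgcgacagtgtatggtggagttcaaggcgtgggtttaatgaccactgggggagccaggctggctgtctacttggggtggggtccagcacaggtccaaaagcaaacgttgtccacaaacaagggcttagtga

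Pvt1 spans the longest of the loci (chr15:62037986-62260215, plus strand). Its peaks sat inside the gene, with 2 promoter, 72 gene body and 11 flank peaks, and 73 of the 74 summits within the gene were intronic. The promoter peak at chr15:62038275-62040132 was 1858 bp wide, covered the inner start site and had a fold of 12.7 with 42 fragments (30.3 to 56.8). The strongest gene body peak, at chr15:62044076-62044556, lay 4.94 kb beyond the inner start with a fold of 12.97 and 29 fragments (19.4 to 41.6). The next strongest peak lay 39.6 kb beyond the inner start with 10.3-fold enrichment. The strong peaks were therefore gathered toward the 5′ end of the gene, though 8.67-fold peaks with 19 fragments also occurred up to the 3′ end. The flanks were poor, and their strongest peak had a fold of 7.80. The other gene with a start site in the locus, the pseudogene Macroh2a3, had no promoter peak. Both of the strongest Pvt1 summits fell on long runs of TG repeats, as the window of the gene body peak shows. It also holds the letters CACGTG, the E-box bound by MYC, in capitals, at 2 places. Of the 85 Pvt1 windows only 1 had these letters (1.18%), against 2.66% of all peaks.
Pvt1, chr15:62044096-62044296: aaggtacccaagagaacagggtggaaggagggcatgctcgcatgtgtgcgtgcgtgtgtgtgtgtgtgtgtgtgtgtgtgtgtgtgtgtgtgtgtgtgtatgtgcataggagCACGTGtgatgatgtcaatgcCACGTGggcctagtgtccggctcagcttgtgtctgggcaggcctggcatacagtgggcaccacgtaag

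Lncpint and the miR-29 genes shared a region of 256 kb with 98 peaks. Lncpint (chr6:31093563-31218474, minus strand) had 7 promoter, 43 gene body and 47 flank peaks, and all 47 flank peaks lay downstream, toward Mir29b-1 and Mir29a. The promoter peaks at its curated RefSeq start were weak and narrow. The strongest, at chr6:31217190-31217287, had a fold of 6.04 with 14 fragments (7.65 to 23.5), and the 7 widths ran from 80 to 182 bp. A second annotation, GENCODE, gives 14 start sites for Lncpint. With these, 12 of its peaks were promoter peaks. The strongest of them, at chr6:31086773-31088429, had a fold of 8.91 and is a downstream flank peak by RefSeq. From 10 to 60 kb inside the gene there was no peak. Of the 45 summits within the gene, 3 lay in the first 62.5 kb and 42 in the rest. A single peak lay between 60 and 70 kb and 11 between 70 and 80 kb, and the bins from 130 to 160 kb, between the end of Lncpint and the hairpins, held 13, 15 and 14 peaks. The miR-29 starts lie 155.4 and 155.7 kb from the Lncpint start, so the densest bins were those that lead up to and contain the hairpins.

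The strongest peaks of the locus lay in the 3′ introns of Lncpint, among them the strongest of all 10 loci. That peak, at chr6:31122808-31124757, had a fold of 21.1 with 48 fragments (35.4 to 63.6), 95.02 kb from the start. Peaks at chr6:31097529-31100129 and chr6:31124862-31127553 both had a fold of 15.7, with 39 and 47 fragments and widths of 2601 and 2692 bp. Another, at chr6:31115000-31117105, had a fold of 12.2. The fragment intervals of the first 3 overlapped, so their order is not resolved at this depth. Around the hairpins of Mir29a (chr6:31062660-31062747) and Mir29b-1 (chr6:31063023-31063093) the same 8 peaks fell in both promoter windows, with folds of 3.38 to 8.38. The strongest of them, at chr6:31061584-31061838, lay 1.33 kb downstream of the Mir29b-1 start with 32 fragments (21.9 to 45.2). Peaks covered 31.7% of the bases of each miR-29 window and 19.5% of the Lncpint window, the highest shares of the members, while the others ranged from 0.128% at Mir17hg to 14.9% at Dnm3os. The neighbor that starts 1.88 kb from Lncpint, the lncRNA gene 2210408F21Rik, had 5 promoter peaks, all of them also promoter peaks of Lncpint.

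**Figure D4:**
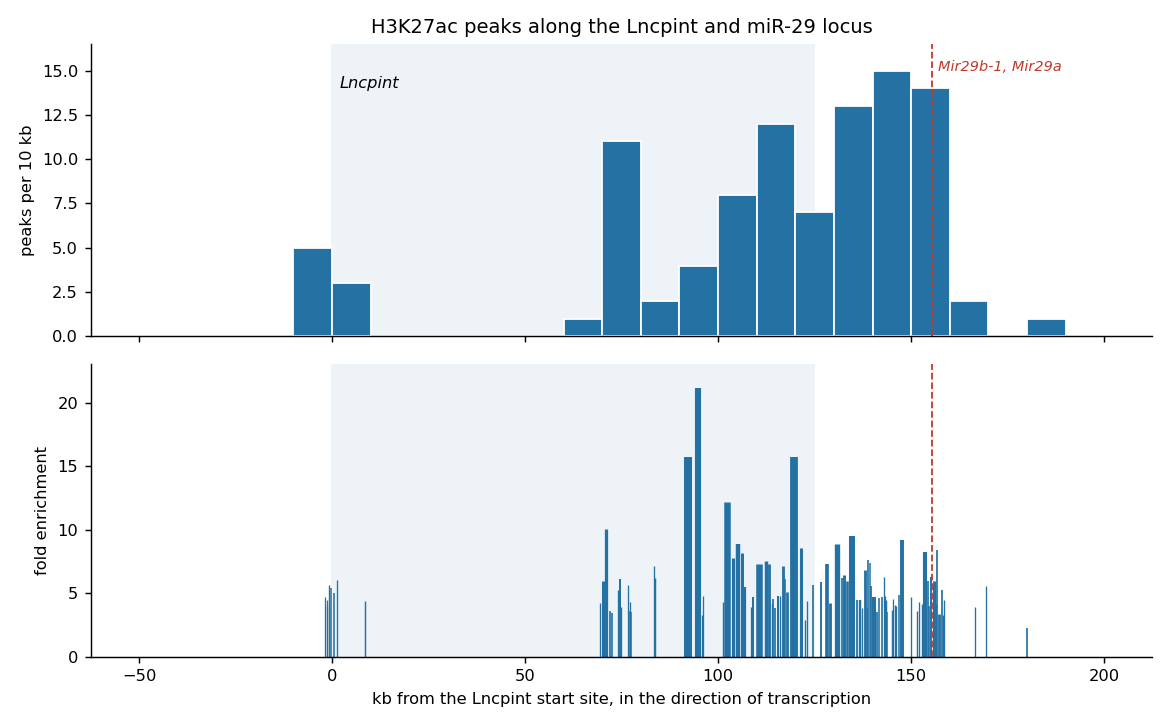
Peaks along Lncpint and the miR-29 genes. The horizontal axis is the distance in kb from the Lncpint start site along transcription, the upper bars count peak summits per 10 kb, the lower stems give the fold enrichment of each peak with thicker stems for wider peaks, the shaded area is Lncpint and the dashed red line is the start of Mir29b-1. The bins rise to 15 peaks between 140 and 150 kb, and the highest stem is 21.1.

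The strongest Lncpint window and the strongest window beside the hairpins are printed to show what lay under these summits. The first holds a CA repeat and CCAAT in capitals.
Lncpint, chr6:31123355-31123555: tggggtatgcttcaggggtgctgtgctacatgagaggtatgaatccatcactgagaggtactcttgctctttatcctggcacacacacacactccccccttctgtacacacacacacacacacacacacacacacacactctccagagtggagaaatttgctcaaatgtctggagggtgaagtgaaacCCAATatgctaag
The window beside the hairpins holds a forkhead match, TGTTTAC on this strand, in capitals. Such a match lay in 1 of the 69 windows at Mir29a (1.45%), against 3.27% of all peaks, and a match of letters is not a binding site.
miR-29, chr6:31061666-31061866: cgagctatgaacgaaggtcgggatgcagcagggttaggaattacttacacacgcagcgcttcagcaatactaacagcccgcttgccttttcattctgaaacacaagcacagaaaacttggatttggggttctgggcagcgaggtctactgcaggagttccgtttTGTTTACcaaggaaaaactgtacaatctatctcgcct

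Of the microRNA host genes, Dnm3os had the strongest promoter among the members. Dnm3os (chr1:162217623-162225550, plus strand) is transcribed from the opposite strand of Dnm3, a dynamin gene, and CUT&RUN does not tell strands apart. Its strongest promoter peak, at chr1:162217026-162221704, was 4679 bp wide, had a fold of 18.1 with 46 fragments (33.7 to 61.4) and covered both the start site and the miR-199a hairpin. A second promoter peak, 1982 bp wide, lay just upstream with a fold of 6.57. The 7 gene body peaks were weaker, the strongest having a fold of 6.94 near the miR-214 hairpin. Of 24 flank peaks, 23 lay upstream, with the strongest at 12.54-fold and 28 fragments (18.6 to 40.5), 9.89 kb before the start. The downstream flank held 1 peak. The window of the promoter summit holds CCAAT and TATAAA, each on the opposite strand, in capitals.
Dnm3os, chr1:162218079-162218279: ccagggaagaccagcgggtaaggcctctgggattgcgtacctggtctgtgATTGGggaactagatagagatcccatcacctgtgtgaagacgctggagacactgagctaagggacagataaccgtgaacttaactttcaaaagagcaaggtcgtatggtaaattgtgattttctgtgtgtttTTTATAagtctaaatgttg

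Mir17hg was the opposite case. RefSeq places it at chr14:115044390-115046728 on the plus strand, which starts inside the microRNA cluster, so the hairpins from Mir17 to Mir19b-1 lie upstream of that start and only Mir92-1 lies within the span. The single peak, at chr14:115043011-115043141, was 131 bp wide with a fold of 4.36 and 9 fragments (4.12 to 17.1), upstream of the first hairpin. The fold of 4.36 equaled the lower quartile of the list. Of all RefSeq genes 62.7% had as high a density or a higher one. The deposited file lacked 1 peak number in this region, and 1 in that of Malat1 and Neat1. The nearest protein-coding gene, Gpc5, had no promoter peak. A promoter of the host transcript farther upstream would not be seen as one with this annotation, although no other peak lay within the 50 kb.

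Gas5 and Snhg1 are hosts of snoRNAs, which guide the modification of ribosomal RNA, and both share their start region with a protein-coding gene. Gas5 (chr1:161034601-161038539, plus strand) starts 0.248 kb from Zbtb37 and had 5 promoter, 3 gene body and 13 flank peaks. Its strongest promoter peak, at chr1:161036375-161036821, lay 1.27 kb beyond the inner start with a fold of 8.52 and 20 fragments (12.2 to 30.9). The widest, 1331 bp with a fold of 6.76, lay upstream over Zbtb37. Snhg1 (chr19:8723487-8726326, plus strand) starts 0.118 kb from Slc3a2 and had only 2 promoter peaks, both upstream on the Slc3a2 side, with folds of 5.39 and 5.15 and with 14 and 11 fragments. It had no gene body peak. Its strongest flank peak, 13.4-fold with 30 fragments (20.2 to 42.8), lay 34.1 kb downstream at the promoter of Nxf1, an mRNA export factor, which was the highest promoter fold of any neighbor with a protein-coding product. Of the 5 Gas5 promoter peaks 4, and both of Snhg1, also lay in the promoter window of the neighbor, and there host and neighbor cannot be told apart.

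The promoter sequences of both, 250 bases before and 50 after the start from the RefSeq table for GRCm38.p6, are shown on the plus strand because both genes share their start region with a protein-coding gene. Capitals mark GGGCGG on either strand, the box of SP and KLF factors, TGACGTCA, the cAMP response element, and TATAAA. The inner start of Gas5 begins with C and 4 more pyrimidines, as do 2.51% of the 32851 promoters of the table, a feature looked at after the sequences were seen.
Gas5, chr1:161034916-161035215: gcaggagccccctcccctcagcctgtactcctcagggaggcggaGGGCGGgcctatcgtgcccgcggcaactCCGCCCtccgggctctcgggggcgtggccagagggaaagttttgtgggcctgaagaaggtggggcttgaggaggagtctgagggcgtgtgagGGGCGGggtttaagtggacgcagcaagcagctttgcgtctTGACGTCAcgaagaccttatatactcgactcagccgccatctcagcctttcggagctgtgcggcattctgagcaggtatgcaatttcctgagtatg
Snhg1, chr19:8723237-8723536: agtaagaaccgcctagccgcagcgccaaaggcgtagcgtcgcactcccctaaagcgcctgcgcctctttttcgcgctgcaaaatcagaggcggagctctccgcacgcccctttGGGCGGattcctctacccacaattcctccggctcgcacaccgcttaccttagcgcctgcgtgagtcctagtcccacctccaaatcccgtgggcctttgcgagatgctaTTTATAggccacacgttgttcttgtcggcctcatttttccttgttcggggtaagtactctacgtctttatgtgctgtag
CpG sites were as frequent as base composition gives at Snhg1 (observed over expected 1.07), and only 2.85% of promoters had a higher ratio. The ratio was 0.904 and 0.672 at the starts of Gas5, 0.698 at Lncpint and 0.604 at Malat1, against a median of 0.384 over all promoters. It was low at Dnm3os (0.298) and Mir17hg (0.242). The strongest promoter peak and the highest CpG ratio thus belonged to different genes. GGGCGG occurs in 35.7% of all promoters, TATAAA in 13.6% and TGACGTCA in 1.79%. Promoter sequences of Neat1, Pvt1, Mir29a and Mir29b-1 were not used here.

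Letters under the 340 summits differed little from those under all summits. Windows of 201 bases held CANNTG in 65.9% of the locus peaks and 64.9% of all peaks, CAGCTG, the E-box of myogenic factors, in 10.3% and 10.0%, and CACGTG in 2.35% and 2.66%. TGANTCA, the AP-1 motif, was found in 18 locus peaks, or 5.29%, against 8.05% of all peaks. GTAAACA was found in 3.53% and 3.27%, CCAAT in 22.1% and 22.3%, GGAATG in 12.6% and 11.4%, TATAAA in 13.2% and 13.0%, GGGCGG in 3.24% and 4.14%, CCGGAAG, the ETS motif, in 1.76% and 1.20%, and TGACGTCA in 1 locus peak, or 0.294%, and 0.153%. Both strands were searched, and CAGCTG and CACGTG are also counted in CANNTG. The median GC content was 47.3% and 45.8%. The promoter sequences are 300 bases long, so their shares cannot be set directly beside those of the 201-base windows. Among all promoters CANNTG occurs in 72.3%, CAGCTG in 16.3%, CACGTG in 7.15%, TGANTCA in 7.81%, CCGGAAG in 8.86%, GTAAACA in 3.65%, CCAAT in 37.4% and GGAATG in 14.7%. Runs of at least 10 CA or TG units, counted after such runs had been seen at Pvt1 and Lncpint, occurred in 16 locus windows (4.71%) and in 3.58% of all windows. Among the 11 locus peaks with a fold of at least 10 there were 4, both of the strongest Pvt1 peaks and 2 of Lncpint, against 6.26% of the 5290 such peaks in the list. Short reads are placed less surely in such repeats, and their part in these enrichments was not tested.

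Peaks were also joined into clusters as in the ROSE method for super-enhancers, after peaks lying within 1 kb of a start site were left out. This gave 20840 clusters, of which 864 lay above the slope limit, with a median of 27 peaks over 44.8 kb. A cluster above the limit overlapped 7 of the 10 genes, against 3.33% of all RefSeq genes, and the 7 genes shared 4 clusters. The cluster over Lncpint and both miR-29 genes (chr6:31038279-31148998) had rank 7, with 86 peaks over 110.7 kb. The promoter at the curated RefSeq start of Lncpint lay outside it, while its strongest promoter peak by GENCODE starts lay inside. Dnm3os was in the cluster of rank 109, with 29 peaks over 44.3 kb, mostly upstream. Malat1 and Neat1 shared rank 504, with 68 peaks over 74.4 kb, and Pvt1 had rank 561, with 41 peaks over 79.9 kb. The Pvt1 cluster (chr15:62071420-62151346) held neither its promoter peak of 12.7-fold nor its strongest gene body peak, of 12.97-fold. With -log10 q of at least 5, or in the strongest 25% of peaks, Malat1, Neat1 and Pvt1 were in no cluster above the limit and 4 of the 10 genes remained in one. By number of peaks alone the Malat1 and Neat1 cluster rose to rank 67 and the Lncpint cluster fell to rank 30. The median peak was 159 bp wide at Malat1 and 225 bp at Lncpint. The cluster of Gas5, at rank 2114 with 8 peaks, lay below the limit, and Snhg1 and Mir17hg were in no cluster.

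**Figure D5:**
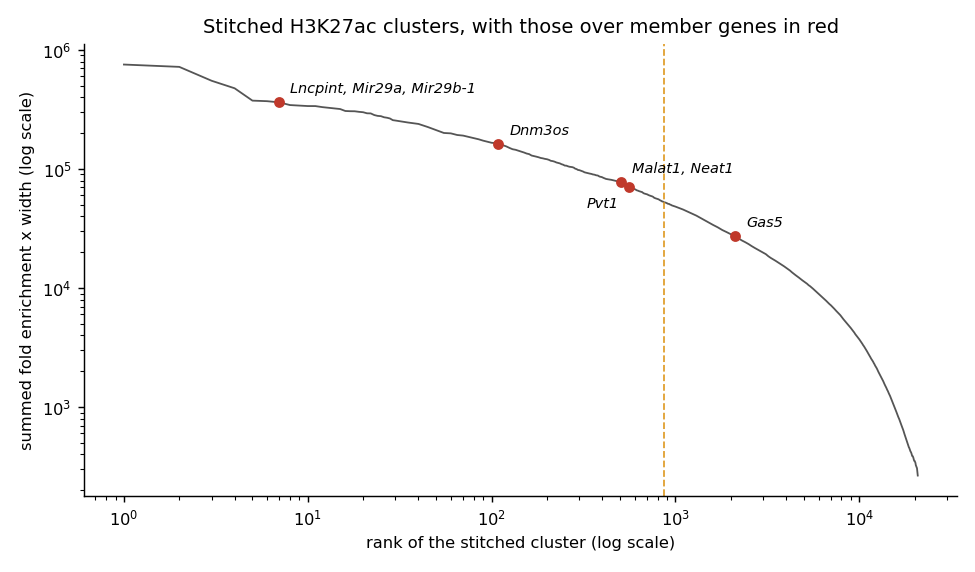
Stitched clusters by rank. The horizontal axis is the rank and the vertical axis the sum of fold enrichment times width over the peaks of a cluster, both on log scales, red points are clusters over member genes and the dashed line is the slope limit at rank 864. Lncpint with the miR-29 genes lies at rank 7, and Gas5 at rank 2114 lies right of the line.

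At promoters of other annotated genes lay 52 of the 340 peaks, or 15.3% (Wilson 95% interval 11.9 to 19.5%). The interval counts peaks as independent, although many were neighbors at the same promoter, so it is too narrow. The same share over all peaks of the list is not given here. Of the 52 peaks, 17 were only at microRNAs or snoRNAs hosted by the members, 9 of them at Dnm3os, 7 at Snord47 within Gas5 and 1 at Mir17hg. That left 35 peaks (10.3%) at genes the members do not host. Gas5 had 9 of its 21 peaks and Snhg1 12 of its 20 at such genes, against 2 of 73 at Malat1 and 0 at Pvt1 and the miR-29 genes. Of the 15 protein-coding genes with a start site in the loci 12 had a promoter peak, beside 42% of all genes with a curated start site, and some of them shared their peaks.

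Lists of related genes were counted for comparison. A promoter peak was found at 15 of 18 further snoRNA host genes (83.3%, with a Wilson 95% interval from 60.8 to 94.2%), with the highest folds at Snhg15 (16.8), Zfas1 (11.2) and Snhg3 (9.96), and 3 had none. Of 21 other noncoding RNA genes of growth or the nucleus 11 did (52.4%, 32.4 to 71.7%), and 10 had none. The highest folds among them were at Rn7sk (18.997), Hotairm1 (9.33), and Dleu2 and Dancr (8.24 each). Of 11 microRNA host genes 4 did, with Mir100hg (14.01), Mcm7 (8.24) and Dnm2 (6.51) highest, and 7 had none. Of 11 further microRNA genes, which were relatives of miR-29, miR-17 and miR-199 together with Mir21a, Mir34a and Mirlet7a-1, 3 did, Mir199a-1 (9.10), Mir21a (7.09) and Mirlet7a-1 (5.97), and 8 had none. Mir29b-2 and Mir29c, the second miR-29 locus with the same seed, had no promoter peak and 7.99 peaks per 100 kb, against 69.0 at Mir29b-1. Mir106b and Mir93, relatives of miR-17, had none either, but 13.99 peaks per 100 kb lay around each.

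The limit of 50 kb cut through clusters in places. The outermost peak inside the Mir29b-1 window on the Lncpint side had its summit 0.095 kb from the limit with a fold of 8.88, and the next one outside lay 1.30 kb beyond it with a fold of 7.80. At Malat1 the last peak inside, 0.737 kb from the limit toward Neat1, had a fold of 9.10, and the next one outside had 6.17. At the opposite end of the miR-29 window the next peak outside was 105 kb farther away. Beyond the upstream end of the Neat1 window, 11.6 kb past the limit, lay a narrow peak with a fold of 25.5 and 58 fragments, higher than any inside the loci.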

How the data were processed

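H3K27ac CUT&RUN of 1 MCP tumor library was read from the deposited MACS2 peak list. By the study's methods, the authors aligned read pairs to mm10, discarded reads in problematic regions and near Col19a1, and called peaks against IgG. These methods state a threshold on p for an older MACS than the submitters' processing notes name, so whether that threshold and those read filters apply to this list is not given in the sources used here. The deposited list holds a score, the fold enrichment (a ratio), -log10 p and -log10 q for each peak. Peaks were linked to the library by the number in their names. There were 0 columns of other samples, and 584 of 122959 peak numbers were absent from the file. Fragments were recovered from fold and p with a scale of 0.885, which gave whole numbers within 0.01 in -log10 p for 99.999% of peaks and a single solution for 96.5%. Of the 340 peaks of the loci, 14 allowed 2 numbers. The steps were tested on simulated data. Of the listed symbols, 3 lncRNA and 2 microRNA host genes did not match RefSeq. The members and gene lists were chosen with earlier results of these data known. Genes, start sites and sequences were from RefSeq GRCm38.p6, with curated transcripts only. All 10 members, the strongest promoter, gene body and flank peaks and the widest peak of each, the nearest protein-coding neighbor and the 3 highest genes of each list were named by rule. Some neighbors and a peak that the rule names are not reported here. Other peaks and repeats were named after their values were seen. Clusters used the ROSE scheme, scored by fold times width. No test between samples was possible with 1 library. Alternatives varied the q limit, window sizes, start sites and cluster settings. Python 3.11.15, numpy 2.4.6, pandas 2.3.3, scipy 1.17.1, pysam 0.24.0 and matplotlib 3.10.9 were used.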

Additional observations from a re-analysis of the deposited data

How the results depend on the processing

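No paired analysis was possible because the list comes from 1 library and no result rests on a test between groups. Of 43 values under other settings, 28 stayed within the counting interval or within 1.5 times the reported one and 15 moved. With -log10 q of at least 5 the loci held 160 peaks (13.98 per 100 kb), Lncpint 54, and 4 members lay in a cluster above the limit, which Malat1, Neat1 and Pvt1 left. In the strongest 25% of peaks these values were 89 peaks (7.77 per 100 kb), 31 and 4. With flanks of 10 kb there were 44.0 peaks per 100 kb, 58 at Lncpint and 11.1% of peaks at promoters of other genes, and with 100 kb 21.8 per 100 kb and 19.7%. A promoter half-width of 1 kb gave 10.9% at other promoters. Without the Malat1 and Neat1 locus the density was 25.9, an alternative chosen after seeing the data. The number of members with a promoter peak was 10 under 3 settings, 9 with -log10 q of at least 5 or a half-width of 1 kb, where Mir17hg lost it, and 7 in the strongest 25%, where Lncpint, Snhg1 and Mir17hg lost it. It was also 7 at a half-width of 500 bp, where Neat1, Snhg1 and Mir17hg lost it. The cluster of Lncpint stayed within ranks 2 to 30. The depth limits single peaks, since a typical summit rests on 13 fragments.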
